A study of Mus musculus with 14 samples.

Results

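The m6A peaks at transcript 5′ ends are the peaks of the wild-type (WT) list whose summit, the base of highest signal, lay in an annotated exon and no more than 300 bp from the 5′ end of that gene. Where several genes qualified, the gene with the longest summed exons was taken. In the WT list 833 of 17693 peaks (4.71%) met the rule, which is 6.21% of the 13418 WT peaks with an exonic summit, and the 833 peaks lay on 833 different genes of the 52459 in the count table. Neither the overlap with the mutant peak list nor RNA decay entered the rule.

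The study compared WT E14Tg2a mouse embryonic stem cells (mESCs) with a METTL14 R255K line, in which CRISPR-Cas9 had put lysine in place of the arginine R255 of METTL14, a subunit of the m6A methyltransferase. Both were cultured on gelatin with LIF, and the mutant cells were grown from single colonies, so the R255K genotype is 1 clonal line that cannot be told apart from other differences between the clone and its parent. For m6A mapping (MeRIP-seq), total RNA in short fragments was precipitated with an antibody to m6A, and the input RNA was depleted of ribosomal RNA, giving 2 IP and 2 input libraries per genotype and 1 deposited peak list per genotype. For decay, polyadenylated RNA was sequenced after 0, 4 and 8 h in actinomycin D (5 µg/ml), a blocker of transcription, with 1 library per genotype and time. With no replicate peak list and no replicate RNA library, no test against replicate error was possible. Intervals below are 95% intervals that cover counting error, or the spread over peaks or genes, only.

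N6-methyladenosine is placed on mRNA by the METTL3-METTL14 complex with WTAP, mostly at GGAC-like motifs in long internal exons and around stop codons, and it marks many transcripts for decay through YTH-domain readers. At the other end of the mRNA, the first transcribed nucleotide after the cap can carry m6Am, which is written by PCIF1 and not by METTL14, and antibodies raised to m6A also bind it. A peak at a transcript start can therefore hold m6A in the 5′UTR or early coding sequence, m6Am at the cap, or both, and short-fragment MeRIP does not separate them.

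The sequences below are from the mm10 genome on the strand of the gene, and show the GGAC nearest to the summit in capitals for peaks that differed most between the genotypes. Syncrip and Ddx6 had peaks with higher fold enrichment in R255K. Supt6 and Krit1 had peaks with much lower fold enrichment in R255K. Tfap2c and Rfx7 had strong WT peaks without an R255K peak. Cnnm3 and Hoxd13 were among the 8 peaks of highest WT fold enrichment, and Ythdf3 encodes a reader of m6A.
Syncrip, minus strand, chr9:88482375-88482402: gcagggaaggaaGGACgaaggctgagag
Ddx6, plus strand, chr9:44604944-44604971: gcctcggtggtaGGACtcgggcccgagc
Supt6, minus strand, chr11:78245784-78245811: ttaggcgttcgcGGACtcggaaccaaag
Krit1, plus strand, chr5:3803258-3803285: gagggagaggaaGGACggtggggaacag
Tfap2c, plus strand, chr2:172549687-172549714: gtccagtgactgGGACagcaaggccggc
Rfx7, plus strand, chr9:72532411-72532438: gcgcccgaccacGGACctcgttcttcag
Cnnm3, plus strand, chr1:36512027-36512054: ctgcacggaagaGGACagcgcaccgggc
Hoxd13, plus strand, chr2:74668318-74668345: ctcggggacttgGGACatggatgggctg
Ythdf3, plus strand, chr3:16183283-16183310: gaggacgagcggGGACgagcagtgtgca
The A of the motif lay 3 nt upstream of the summit in Supt6, 1 nt downstream in Syncrip, 24 nt upstream in Ddx6 and 22 nt upstream in Krit1. It lay 11 nt upstream of the summit in Tfap2c, 17 nt upstream in Cnnm3, 8 nt upstream in Hoxd13, 21 nt upstream in Ythdf3 and 15 nt downstream in Rfx7. These sequences were picked from peaks with a GGAC and do not show how often one was near. For Arglu1, another peak higher in R255K, the nearest GGAC was 63 nt from the summit, and the lost peaks credited to Gm44732, Gm14549 and A230072E10Rik held AGAC but no GGAC.

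Transcript starts are the other sequence of interest, since an A there is the base that can become m6Am. The next sequences are 21 bases around the start given by RefSeq, with the first transcribed base in capitals, for 6 peaks chosen because their genes are described below.
Klf4, minus strand, chr4:55532465-55532485: ggccgccggcAgttccccggc
Nr0b1, plus strand, chrX:86191765-86191785: gccactgggcAgaacgagcta
Dusp1, minus strand, chr17:26508462-26508482: acgagcgcgcAgtgaaggact
Pcif1, plus strand, chr2:164879358-164879378: catgcgcagcGcggagtcccg
Ythdc1, plus strand, chr5:86804256-86804276: ctccattttaGcgccgcccgg
Syncrip, minus strand, chr9:88482387-88482407: gaggtgcaggGaaggaaggac
The summit lay 296 bp downstream of this start in Klf4, 174 bp in Nr0b1, 123 bp in Dusp1, 81 bp in Pcif1, 184 bp in Ythdc1 and 8 bp in Syncrip. In 5 of these 6 genes the summit thus lay 81 to 296 bp inside the transcript, and in Syncrip it lay beside the RefSeq start. The called peaks of all but Klf4 nonetheless covered that start, so the summit distance does not separate m6A from m6Am.

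The summits lay mostly on protein-coding genes, in windows rich in GC and CpG. That they lay downstream of the 5′ end and nearly all in exon 1 follows from the rule. The median distance from the 5′ end to the summit was 169 bp (quartiles 119 and 214 bp). Of the 833 summits, 821 were in exon 1, 416 (49.9%) in a 5′UTR, 233 (28.0%) in coding sequence, 152 (18.2%) in a noncoding exon and 32 (3.84%) in no GENCODE exon class. Protein-coding genes held 663 of them (79.6%), processed pseudogenes 41, antisense genes 30 and lincRNAs 12, while 29 had no match in GENCODE. On the 660 coding genes with an annotated start codon, 426 summits (64.5%) lay upstream of it and 246 (37.3%) within 100 bp of it. The 201-bp window around the summit had a median GC content of 67.7% and 20 CpG dinucleotides, against 52.7% and 4 CpG around the other exonic summits. The 5′ ends of expressed genes without an exonic peak in either list had a median of 61.7%.

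In WT cells the 5′-end peaks were weaker than peaks elsewhere in exons. Fold enrichment of IP over input, as the peak caller gave it, had a median of 4.61 (range 1.39 to 63.8) against 6.30 for the other 12585 exonic peaks. The median −log10 q, the caller's significance of a peak, was 11.5 (range 1.31 to 213) against 27.3, and the median width was 299 bp against 430 bp. How deeply the IP and input libraries were sequenced is unknown, so it cannot be said how many weaker sites lay under the calling threshold.

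The peak lists carry no strand, and this bears on which gene a peak is credited to. At 133 summits (16.0%) exons of genes on both strands overlapped, and at 162 (19.4%) more than 1 gene did. For 61 of the 833 genes no read was counted at 0 h in either genotype, and at 55 of these 61 summits another gene was annotated as well. The peaks just inside the distance limit were those of Fbxl12 (300 bp, WT fold enrichment 4.24, no R255K peak), Klhl34 (299 bp, 28.0 in WT and 19.7 in R255K) and Gm15470 (299 bp, 7.97, no R255K peak). Just outside were Fam43a (301 bp, 9.50 in WT and 4.98 in R255K), Ehd3 (301 bp, 4.65 and 8.03) and Kcnk5 (303 bp, 11.1 and 10.0).

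The RNA libraries held 13812160 to 18813640 counts over genes. Stem cell markers were abundant in both genotypes at 0 h, with a summed level of 2744 FPKM in WT and 2349 FPKM in R255K for 7 genes including Pou5f1, Sox2 and Nanog. FPKM is the count of a gene scaled by its summed exon length and by the library total. The summed level of 8 fibroblast markers was 1.66 and 6.44 FPKM, with Postn and Lum at 0 in both. That of 4 primitive endoderm markers was 8.75 and 4.24 FPKM, with Sox17 higher in R255K and Gata4, Gata6 and Sox7 lower. That of 5 early germ layer markers was 15.8 and 6.41 FPKM. Most of this last sum in WT was Sox1, at 13.4 FPKM against 1.76 FPKM in R255K. Pax6 stood at 1.20 and 1.13 FPKM, and T, Mixl1 and Eomes were higher in R255K. Mettl14 itself had 681 counts in WT and 299 in R255K at 0 h, and a substitution of 1 residue leaves gene counts unable to check the genotype.

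Peaks at 5′ ends were kept in R255K more often than other exonic peaks, although they were weaker to begin with. A WT peak was called kept when at least 1 bp of it was covered by an R255K peak. Of the 833 peaks, 527 (63.3%, Wilson interval 59.9 to 66.5%) were kept and 306 were lost, against 51.7% (50.9 to 52.6%) of the other exonic peaks, a background of 52.5% over all exonic WT peaks and 43.6% over the whole WT list. The difference was 11.5 percentage points (Newcombe interval 8.09 to 14.9). Peaks in first exons beyond 300 bp were kept in 56.9%, a difference of 6.32 points (1.15 to 11.5), those in internal exons in 50.7%, and those in last exons in 51.6%. Peaks outside exons were kept in 15.9%.

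The gap was wide from the weakest peaks up to decile 8 of peak strength. All exonic WT peaks were divided into deciles by −log10 q. In decile 1, the weakest, 38.3% of 154 5′-end peaks were kept and 12.1% of the others. In decile 4 the shares were 72.8% and 23.6%, in decile 6 they were 83.6% and 52.2%, and in decile 7 they were 84.2% and 68.3%. In decile 8 all 27 of 27 were kept (87.5 to 100%) against 84.0%. In decile 9 the shares were 96.2% and 95.2%, and in decile 10 they were 95.5% and 99.7%, where nearly all peaks of both groups were kept and little room was left for a difference. When the other exonic peaks were weighted to the −log10 q deciles of the 5′-end peaks, 31.3% of them were kept, which is the share to set beside 63.3%. Weighting by −log10 q together with the WT FPKM of the gene gave 33.9%, with fold enrichment 31.8%, with peak width 29.3% and with the GC content of the window 44.8%. Weighting by −log10 q the peaks of first exons beyond 300 bp gave 45.9%. The difference depended on how the lists were filtered. With peaks of fold enrichment under 4 removed from both lists, which also turns kept peaks with a weaker R255K peak into lost ones, 49.5% of 499 5′-end peaks were kept, 0.10 points more than of the others (−4.38 to 4.58). With peaks of −log10 q under 5 removed from both lists the difference was 12.5 points (8.84 to 16.0).

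**Figure D1:**
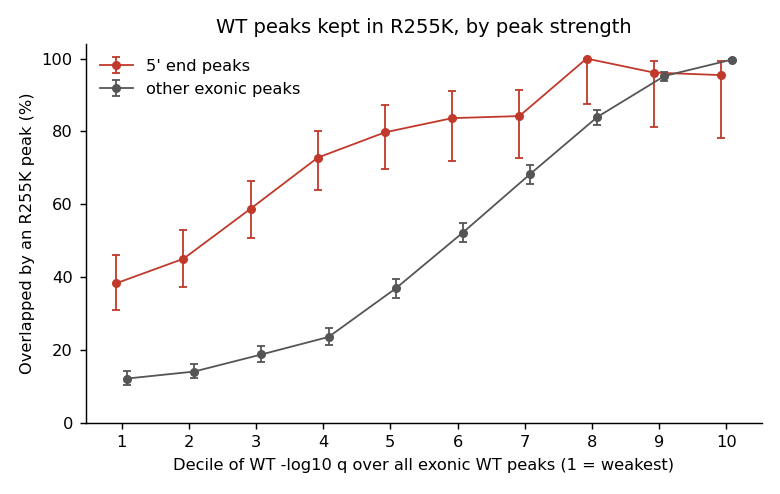
Share of WT peaks kept in R255K (percent, y axis) by decile of WT −log10 q over all exonic peaks (x axis), for 5′-end peaks and for other exonic peaks; bars are 95% Wilson intervals. The 5′-end peaks sit above the others in the weaker deciles, from 38.3% against 12.1% in decile 1, and the groups meet in decile 9, at 96.2% and 95.2%.

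Kept 5′-end peaks were on more highly expressed genes and in more GC-rich windows than lost ones. The median GC content of the window was 69.7% for kept and 64.7% for lost peaks. Over all exons of the genes at 1 FPKM or more it was 51.8% and 50.7%. The median WT level at 0 h was 14.7 FPKM for genes with a kept peak and 2.28 FPKM for genes with a lost one. By quartile of WT FPKM, from lowest to highest, 47.3, 43.7, 63.8 and 84.0% of the 5′-end peaks were kept. Of the other exonic peaks 38.6, 50.2, 55.7 and 62.6% were kept over the same quartiles. By the GC content of the window, 31.9% of 47 5′-end peaks were kept at 45 to 50% GC and 76.9% of 160 (69.8 to 82.7%) at 75% GC or more. The other exonic peaks were kept in 48.8% and 61.2% (52.3 to 69.4%) in those same bins. The intervals of the 2 groups were apart in these 2 bins, with the 5′-end peaks lower at 45 to 50% GC and higher at 75% or more. Expression and GC content moved with the result, and their part in it was not tested.

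**Figure D2:**
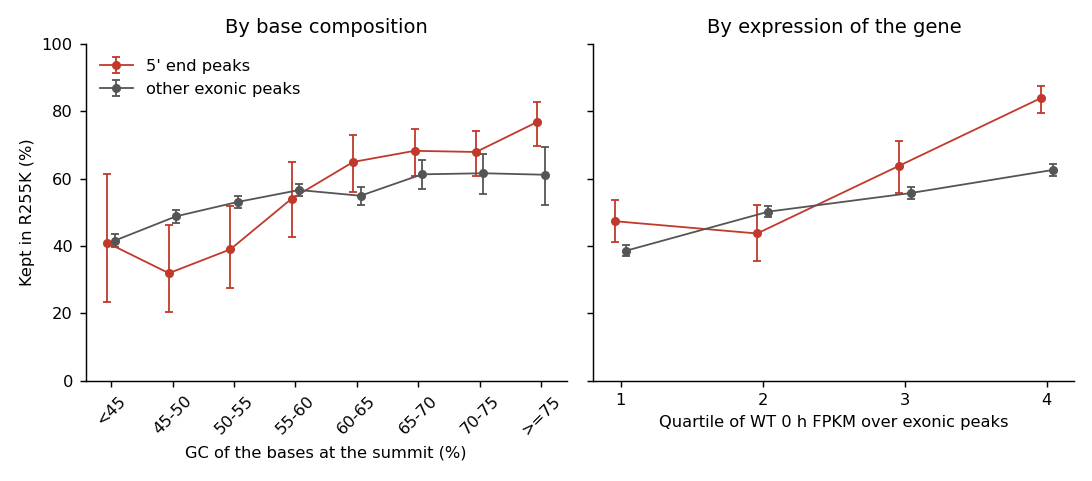
Share of WT peaks kept in R255K (percent) by GC content of the 201-bp window at the summit (left) and by quartile of WT FPKM at 0 h (right), for 5′-end and other exonic peaks, with 95% Wilson intervals. The 5′-end peaks climb from 31.9% at 45 to 50% GC to 76.9% at 75% or more, and reach 84.0% in the highest quartile of FPKM.

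By type of gene, 67.3% of the 5′-end peaks on protein-coding genes were kept, 66.8% of those in 5′UTRs, 69.1% of those in coding sequence and 52.0% of those in noncoding exons. Single-exon genes kept 56.8% of 146 peaks and multi-exon genes 64.6%. Where 1 gene lay at the summit 64.98% were kept, and where several did 56.2% were. The higher share at 5′ ends was thus held by coding genes, and noncoding exons were close to the exonic background.

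The same genes can serve as their own comparison, since expression is then shared. Of the 833 genes, 486 also had at least 1 other exonic WT peak. On these, 315 of 486 5′-end peaks (64.8%) and 483 of 787 other peaks (61.4%) were kept, a difference of 3.44 points (−2.04 to 8.81) whose interval held 0. It was 8.38 points (2.76 to 13.9) where 50% of a WT peak had to be covered and 6.69 points (0.70 to 12.5) at −log10 q of 5 or more in both lists, and those intervals did not hold 0. For genes at 1 FPKM or more it was 4.91 points (−0.84 to 10.5), and for a limit of 100 bp −0.29 points (−13.8 to 12.8). Both of these intervals held 0. The 5′-end peaks were the weaker ones here too, with a median −log10 q of 11.4 against 39.4, and exceeded the strongest other peak of their gene in 69 of 486 genes. On 79 genes the 5′-end peak was kept while the strongest other peak was lost, and in 43 of those 79 it had had the lower −log10 q. On 118 genes it was lost while the strongest other was kept, and in only 2 of those 118 had it had the higher −log10 q. On 236 genes both were kept and on 53 both were lost.

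The enrichment of kept peaks also moved differently at 5′ ends. The median fold enrichment of the 527 kept 5′-end peaks was 4.32 in WT and 4.54 in R255K, with a median ratio of 1.11 (1.07 to 1.14), whereas the other kept exonic peaks had a median ratio of 0.768 (0.759 to 0.779). Fold enrichment was lower in R255K for 201 of the 527 (38.1%), against 74.2% of the other kept peaks and a background of 71.5%. It was more than 1.5-fold higher in R255K for 101 (19.2%; background 5.92%) and more than 1.5-fold lower for 68 (12.9%; background 35.2%). The first-exon peaks beyond 300 bp had a ratio of 0.802, close to that of other exons. On the 236 genes with both peaks kept, the ratio was 1.12 (1.07 to 1.17) at the 5′ end and 0.792 (0.747 to 0.871) at the strongest other peak, and it was the higher of the pair at the 5′ end on 181 genes (76.7%). The strongest other peak was picked by its WT −log10 q and the 5′-end peak was not, so the choice partly fixes this contrast in the ratio.

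This ratio differed with the strength of the WT peak, which the choice of kept peaks partly fixes, since a weak WT peak had to be called in R255K to be counted. By quintile of −log10 q over all kept exonic peaks, from weakest to strongest, it was 1.21, 1.01, 0.749, 0.736 and 0.784 at 5′ ends, and 0.990, 0.739, 0.681, 0.693 and 0.833 elsewhere. In the weakest quintile, which held 334 of the 527 5′-end peaks, the intervals of 1.15 to 1.28 at 5′ ends and 0.957 to 1.01 elsewhere did not meet. In quintile 2 the interval of 0.920 to 1.09 at 5′ ends also lay above the value elsewhere. In quintiles 3 (0.674 to 1.01), 4 (0.553 to 0.856) and 5 (0.570 to 1.05, with 21 5′-end peaks) the interval held the value of the others. The intervals of the 5′-end peaks in quintiles 2, 3 and 5 also held 1.

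**Figure D3:**
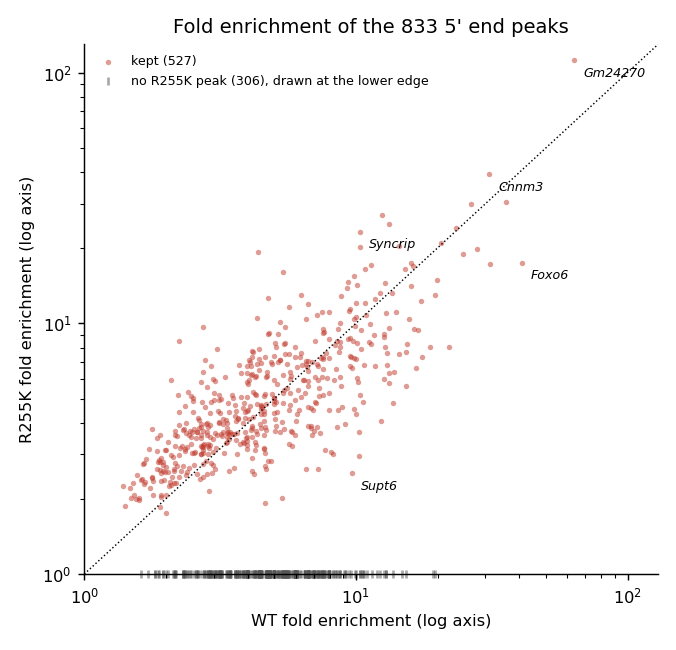
Fold enrichment of each 5′-end peak in WT (x axis, log scale) and in R255K (y axis, log scale), 1 point per peak for the 527 kept peaks; the 306 lost peaks are ticks at the lower edge at their WT value, and the diagonal marks equal values. Of the 527 points, 201 lie below the diagonal.

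The R255K list held more peaks at 5′ ends than the WT list, although it was the shorter list. By the same position rule it had 1076 such peaks, 11.4% of its 9437 peaks and 12.8% of its 8429 exonic peaks. The number of peaks in R255K over that in WT was 1.29 (1.18 to 1.41) at 5′ ends, 0.584 (0.568 to 0.601) at other exonic positions, 0.708 in first exons beyond 300 bp, 0.563 in last exons and 0.236 outside exons. At −log10 q of 20 or more there were 239 5′-end peaks in WT and 316 in R255K, a ratio of 1.32. At 50 or more there were 76 and 59 (0.776), with an interval of 0.553 to 1.09 that held 1, and other exonic peaks stood at 0.3998. More 5′-end peaks in R255K than in WT were thus seen at limits of 5, 10 and 20 and not at 50. At each of these limits the ratio was higher at 5′ ends than at other exonic positions.

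Along the transcript the excess had a narrow place. Measured along exons, the peak number ratio was 0.619 within 50 nt of the start, 1.22 at 51 to 100 nt, 1.66 at 101 to 150 nt (173 peaks in WT, 288 in R255K) and 1.49 at 151 to 200 nt (251 and 374). It was 1.13 at 201 to 250 nt, 0.928 at 251 to 300 nt, 0.790 at 301 to 400 nt and 0.620 at 401 to 600 nt, close to the 0.595 at 601 to 1000 nt. The median ratio of fold enrichment was 0.978 in the first 50 nt, between 1.08 and 1.15 from 51 to 250 nt, 0.957 at 251 to 300 nt and 0.768 at 401 to 600 nt. For a limit of 100 bp in place of 300 bp the ratio was 0.964 (0.775 to 1.20), with 165 and 159 peaks. These distances start at the outermost annotated end of the gene, which need not be the cap in these cells: the Syncrip summit lay 185 bp from that end and 8 bp from the RefSeq start.

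**Figure D4:**
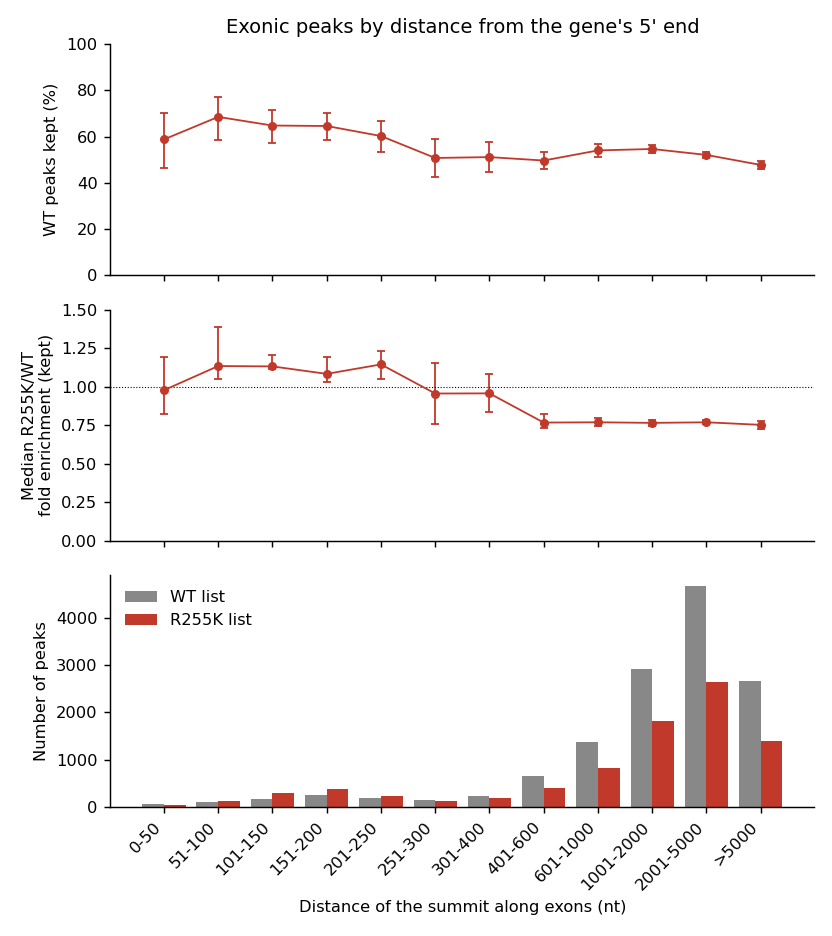
Share of WT peaks kept (percent), median R255K over WT fold enrichment of kept peaks, and number of peaks in each list, each by distance of the summit from the 5′ end along exons (nt), with 95% intervals on the first 2 panels. The number of R255K peaks exceeds that of WT peaks between 51 and 250 nt and reaches 1.66 times it at 101 to 150 nt, and WT peaks are more numerous in the bins from 251 nt on.

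Of the 1076 R255K peaks at 5′ ends, 576 (53.5%, 50.5 to 56.5%) overlapped a WT peak, against 93.8% of the other exonic R255K peaks and a background of 88.6% over all exonic R255K peaks. The other 500 were modest peaks, with a median fold enrichment of 3.50 (1.51 to 16.0) and a median −log10 q of 9.26 (at most 63.3). They lay on expressed coding genes: 457 were on protein-coding genes (91.4%), 457 on genes at 1 FPKM or more, and the median level was 20.01 FPKM in WT and 21.2 FPKM in R255K. On 249 of these genes (49.8%) the WT list had an exonic peak elsewhere. Whether WT cells lacked enrichment there or fell short of the calling threshold cannot be told from peak lists.

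GGAC on the strand of the gene was more common at 5′-end peaks than at 5′ ends without a peak, and the A-rich forms of the motif were rarer than at other exonic peaks. The search covered 4 motifs, GGAC and its variants with 1 or both G replaced by A, within 100 bases of the summit on the strand of the gene. GGAC was in 77.0% (74.0 to 79.7%) of the 5′-end windows, 79.1% of the other exonic windows, 86.6% of those in first exons beyond 300 bp and 62.7% of windows at the 5′ ends of expressed genes with no exonic peak. Within 50 bases of the summit it was in 55.7% (52.3 to 59.0%) of the 5′-end windows, 61.6% (60.8 to 62.5%) of the other exonic windows and 39.5% of the 5′ ends without a peak, so close to the summit it was rarer than at other exonic peaks. On coding genes alone the shares were 80.1% at 5′-end peaks and 66.3% at 5′ ends without a peak. The forms AGAC or AAAC were in 61.3% of the 5′-end windows, 84.9% of the other exonic windows and 63.8% of the 5′ ends without a peak. These shares describe letters in windows of unequal GC content, whose part in them was not tested.

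Within 100 bases of the summit, kept and lost 5′-end peaks held GGAC about equally often, at 77.4% and 76.1%. Among other exonic peaks 84.5% of the kept and 73.4% of the lost held it. Within 50 bases it was in 57.9% (53.6 to 62.0%) of the kept and 52.0% (46.4 to 57.5%) of the lost 5′-end windows. For other exonic peaks those shares were 68.2% and 54.6%. AGAC or AAAC was in 58.4% of the kept and 66.3% of the lost 5′-end windows, and AAAC alone in 19.5% and 33.3%. The 500 R255K peaks without a WT peak held GGAC in 70.2%, with 1.25 GGAC per window on average. That lay between the 1.57 at 5′-end WT peaks and the 1.05 at 5′ ends without a peak.

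The first transcribed base did not set the 5′-end peaks far apart from other genes. A RefSeq start within 300 bp upstream of the summit was found for 452 peaks. An A stood first in 30.3% of them (26.3 to 34.7%), in 28.3% of the kept and 34.5% of the lost peaks, in 30.4% of the R255K peaks without a WT peak, and in 26.8% of 7563 expressed genes without a 5′-end peak. A G stood first in 51.8% against 48.4%, and a T in 4.42% (2.88 to 6.74%) against 9.72%. Of all 27025 RefSeq starts, 35.4% began with A.

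The 8 strongest 5′-end peaks by WT fold enrichment were all kept. The strongest, at Gm24270 (chr9:56223544-56224045), had a fold enrichment of 63.8 in WT and 112 in R255K, and its peak is far wider than the 57-bp gene, which GENCODE lists as a miRNA. Foxo6, a forkhead transcription factor, had 40.9 in WT and 17.4 in R255K at chr4:120286765-120287641 in its coding sequence. Nxph3, a neurexophilin, had 35.7 and 30.6, and Mmp15, a membrane-type metalloproteinase, 31.3 and 17.3. On these 3 coding genes the R255K value was the lower. Cnnm3, of a family linked to magnesium transport, had 31.0 and 39.2, Klhl34 28.0 and 19.7, Hoxd13, a homeobox gene of limb patterning, 26.6 and 29.9, and 6030419C18Rik 24.8 and 18.9. Of the 8, 3 were higher in R255K and 5 lower, beside 38.1% lower among all kept 5′-end peaks (background 71.5%).

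Among the lost peaks of highest WT −log10 q, 4 were credited to genes of known function. Tfap2c, a transcription factor of trophoblast and germ cells, was enriched 12.3-fold in WT with a −log10 q of 75.5 at chr2:172549543-172550024 in its 5′UTR. Rfx7, a DNA-binding factor, had 6.04 and 40.9, Syk, a tyrosine kinase of immune receptor signalling, 9.96 and 38.7, and Mfsd7c, a membrane transporter, 14.8 and 44.8. The other 4 were credited to genes with almost no reads. Gm44732, with the highest −log10 q of any lost peak at 107, had 0 counts at 0 h in both genotypes, and its summit also lay in an exon of Cdkn1c, a cell cycle inhibitor with 1855 WT counts, 1062 bp from the Cdkn1c 5′ end. Likewise Gm14549 shared its summit with Mdrl, A230072E10Rik with Fam120c, and CT009546.1 with CT009546.3, so the gene of origin cannot be told apart.

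Among kept peaks with WT −log10 q of 20 or more, the 5 with the highest ratio were on Eif3j2, Syncrip, Tex13c2, Ddx6 and Arglu1. Eif3j2, a subunit gene of translation initiation factor eIF3, went from 4.35 to 19.2, Syncrip, an hnRNP-like RNA-binding protein, from 10.3 to 23.2, and Ddx6, a helicase of mRNA decapping and P-bodies, from 10.4 to 20.1. Arglu1, a splicing and transcription cofactor, went from 5.26 to 10.2 and Tex13c2 from 12.5 to 26.9. The 5 with the lowest ratio were Supt6, a transcription elongation and histone chaperone gene, from 9.67 to 2.52, Krit1, a gene of endothelial junctions, from 10.3 to 2.96, Ppm1d, a phosphatase of the p53 response, from 10.3 to 3.69, and the antisense genes Gm45371, from 12.4 to 4.06, and Gm16599, from 13.6 to 4.81. Gm45371 shared its summit with Zfp703 and Gm16599 with Cux1, both antisense genes having 0 counts, and the Supt6 summit lay 48 bp inside Sdf2 on the other strand.

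A 5′-end WT peak was found on 1.59% of all genes and on 5.23% of those at 1 FPKM or more, the shares to set beside the gene lists. None of the 8 genes of the writer complex had a 5′-end peak in either list, although 16 exonic WT peaks lay elsewhere on them. Of 11 readers and erasers, 3 had one and kept it. Ythdf3, a cytoplasmic reader, had a fold enrichment of 7.22 in WT and 10.8 in R255K, Ythdc1, the nuclear reader, 3.54 and 5.02, and Igf2bp1, an mRNA-stabilising reader, 2.18 and 2.31. All 3 were higher in R255K, too few to set beside the 38.1% lower among all kept 5′-end peaks (background 71.5%). Hnrnpa2b1 had a 5′-end peak in the R255K list alone. Of 11 genes of cap formation and cap methylation, Pcif1, the writer of m6Am, had the only one, a weak peak of 2.32 that was lost.

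Pluripotency and signalling genes showed both outcomes. Of 20 pluripotency genes, 4 had a 5′-end peak. The peak of Klf4 stood at 2.61 in WT and 2.50 in R255K, that of Klf5 at 2.46 and 3.51, and that of Nr0b1, which encodes the nuclear receptor Dax1, at 5.16 and 9.11, while the peak of Pou5f1, at 1.62, was lost. Zfp42 had one in R255K alone. Of 27 TGFb, Nodal and BMP genes, Smad1, a BMP effector, was kept with 2.47 and 3.30, Smad7, an inhibitor of TGFb signalling, was kept with 4.31 and 6.89, and Smad5, another BMP effector, was lost from 9.44. Smad4, the shared partner of these effectors, had a 5′-end peak in R255K alone. Of the 7 genes the study itself named, Klf4, Smad7 and Zfp36l1 had a 5′-end peak and kept it. That list was chosen on these samples and is no independent evidence. By PCR on m6A-precipitated RNA, the study reported lower m6A in R255K at peaks on Klf4, Smad7 and Zfp36l1. Whether those were the 5′-end peaks was not checked here.

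Heat shock and immediate early genes kept every 5′-end peak they had. Of 15 heat shock genes 6 had one, and 5 of the 6 were higher in R255K and 1 lower. Among all kept 5′-end peaks 38.1% were lower in R255K (background 71.5%). Hspa1a went from 8.77 to 10.0, Hspa1b from 6.58 to 10.4, Hsph1 from 4.67 to 6.08, Hspb1 from 3.14 to 4.05 and Hspa4 from 2.08 to 2.27, while Dnajb1, a co-chaperone, went from 4.15 to 3.51. Hspa1a and Hspa1b are near-identical copies, so reads could be split between them. Among 19 immediate early and short-lived genes, Btg2, an anti-proliferative gene, went from 4.51 to 4.65, Dusp1, a MAP kinase phosphatase, from 7.55 to 9.46, and Zfp36l1, a binder of AU-rich elements, from 3.32 to 3.35. The counts of 6 of 6 and 3 of 3 kept stand beside the exonic background of 52.5%. They and the 5 of 6 higher in R255K are too few to set the lists apart.

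Replication-dependent histone genes, whose short mRNAs end in a stem-loop without a poly(A) tail, formed the largest group. Of 70 such genes 11 had a 5′-end peak in WT, all on chromosome 13, and all 11 were kept (63.3% of all 5′-end peaks; background 52.5%) and higher in R255K. Of all kept 5′-end peaks 38.1% were lower in R255K (background 71.5%), and of the histone peaks 0 of 11. Their fold enrichment was low, between 1.41 and 2.54 in WT, and the ratio ran from 1.32 to 1.66 with a median of 1.46. In the R255K list 29 histone genes had a 5′-end peak, with fold enrichments of 1.64 to 3.79, and 18 of those 29 had none overlapping in WT, as had 500 of all 1076 R255K peaks at 5′ ends. With exons of 339 to 1138 bp in all (median 411 bp), a site within 300 bp of the start is most of such a transcript. The genes are also near-identical copies of each other, and the 11 had at most 54 counts in any polyadenylated RNA library, so their decay was not read here. Of 88 ribosomal protein genes, Rps13 was kept (2.39 and 3.20), Rpl36a was lost (2.95), and 5 others had a 5′-end peak in R255K alone.

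Few peaks fell on the remaining lists. Of 12 polycomb genes, Pcgf6, a subunit of PRC1, had a 5′-end peak of 1.99 that was lost, and Cbx7 and Rybp had one in R255K alone. Of 17 germ layer and primitive endoderm markers only T (brachyury) had one, at 4.27, and it was lost. None of 10 fibroblast markers had one in either list.

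Genes with a 5′-end peak retained more of their RNA in R255K than in WT, and so, by less, did expressed genes in general. At a mean 0 h level of 1 FPKM or more, 620 of the 833 genes could be followed. Relative to the library total, their median share of RNA retained after 8 h was 40.1% in WT and 77.7% in R255K. The median log2 ratio of retained shares, R255K over WT, was 0.71 (0.63 to 0.83) against 0.42 over all 11847 genes. It was above 1 for 256 genes (41.3%; background 32.6%) and below −1 for 1.77% (background 2.75%). For the 368 genes that declined in both genotypes, WT half-lives had a median of 3.27 h and R255K half-lives one of 8.31 h. The median ratio was 1.98 (1.80 to 2.11), as it was over all genes with a half-life, at 1.98. It was over 1.5 for 70.7% of the genes (background 68.8%) and under 1/1.5 for 4.35% (background 5.78%), shares near the background. Scaling by edgeR's TMM factors in place of the library total lowered the median log2 ratio of all genes from 0.42 to 0.03 and that of genes with a 5′-end peak to 0.33, so the ratios below are set against those of other genes. At 0 h the median log2 ratio of FPKM was 0.01 (−0.04 to 0.06), against 0.05 over all genes.

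The size of this shift went with whether the gene had other peaks. The 423 genes with a 5′-end peak and another exonic peak retained 25.04% in WT and 67.3% in R255K, a log2 ratio of 1.07, against 0.97 for the 5948 genes with other exonic peaks only. The difference was 0.10 (−0.06 to 0.23). The 197 genes whose only exonic WT peak was at the 5′ end retained 97.7% in WT and 107% in R255K, a log2 ratio of 0.02 (−0.06 to 0.20), against −0.10 (−0.13 to −0.08) for the 5279 genes without an exonic WT peak. That difference was 0.12 (0.04 to 0.31), and its interval held 0 at a 0 h count of 10 or more (0.11, −0.01 to 0.27) and at 5 FPKM or more (0.14, −0.03 to 0.22). Since the values are relative to the library total, a share can exceed 100%.

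The log2 ratio was higher on genes with more peaks elsewhere, with or without one at the 5′ end. With 1 other exonic peak the log2 ratio was 0.84 on genes with a 5′-end peak and 0.69 on genes without one, and with 2 or more it was 1.39 and 1.43. Genes with a 5′-end peak in R255K and no exonic peak in WT, 219 in number, retained 145% in WT and 115% in R255K, a log2 ratio of −0.31. Their median WT level at 0 h was 35.2 FPKM. In the highest quartile of 0 h FPKM (22.1 or more), all genes without an exonic WT peak were close to this, with 151% and 118% retained and a log2 ratio of −0.34. By quartile of 0 h FPKM, the 5′-end-only genes stood at 0.58, 0.53, 0.08 and −0.27 from lowest to highest, and the genes without a peak at 0.05, 0.11, −0.06 and −0.34. In quartile 1 the intervals of 0.36 to 0.72 and −0.01 to 0.12 were apart, and in the other quartiles they met. The highest quartile held 84 of the 197 5′-end-only genes.

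Genes with a lost 5′-end peak had a larger shift in retained RNA than genes with a kept one. The log2 ratio of retained shares was 0.98 (0.71 to 1.21) on 189 genes with a lost peak and 0.64 (0.50 to 0.75) on 431 with a kept one, a difference of 0.35 (0.05 to 0.62). On 5′-end-only genes it was 0.40 for 57 lost and −0.05 for 140 kept, and on genes with other peaks 1.22 for 132 lost and 0.92 for 291 kept. Lost peaks were also on weaker genes, at a median of 6.02 FPKM against 21.4 FPKM among those followed, and the log2 ratio itself was lower on highly expressed genes. Of all genes with other exonic peaks, 315 had a kept 5′-end peak, and on 177 of them every other peak was kept. On 171 the 5′-end peak was lost, and every other peak was kept on 70 of them. The part of those other peaks in the difference was not tested. By quartile of 0 h FPKM, from lowest to highest, lost stood at 1.21, 1.40, 0.64 and 0.32 and kept at 0.72, 0.77, 1.01 and 0.15, so in quartile 3 the order was the opposite. At 5 FPKM or more the difference was 0.10 (−0.18 to 0.52).

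**Figure D5:**
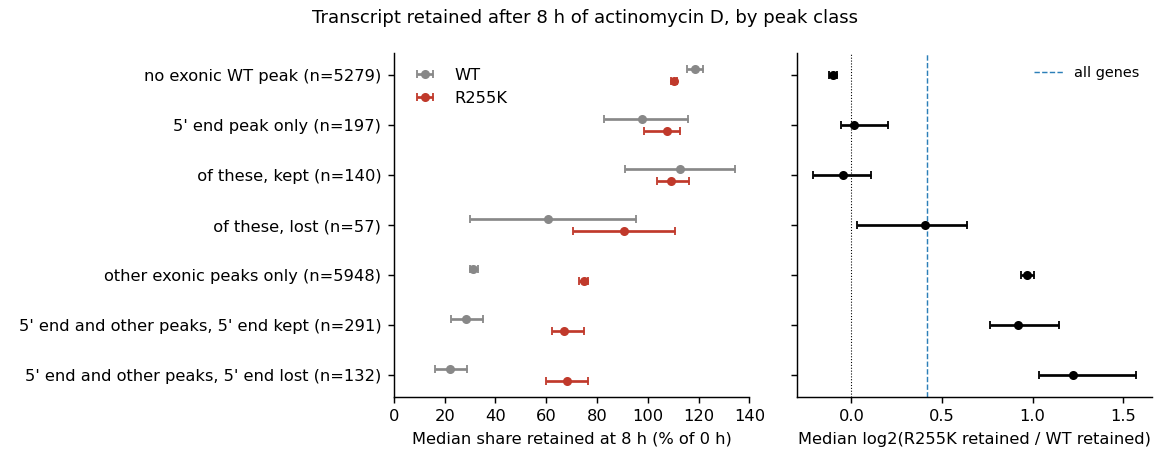
Median share of RNA retained at 8 h in WT and R255K (percent) and median log2 ratio of retained shares, R255K over WT, for genes grouped by their peaks, with 95% order-statistic intervals over genes; the dashed line is the median of all genes, 0.42. Genes with other exonic peaks sit near 1 with or without a 5′-end peak. Genes with a 5′-end peak only sit at 0.02 (−0.06 to 0.20), above the −0.10 (−0.13 to −0.08) of those without a peak.

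Single genes could be read only against counting error, with 1 library per point. Of the 494 genes with 200 counts or more at 0 h in both genotypes, the counting intervals of the retained share did not meet between the genotypes for 402. Of these 314 were higher in R255K (63.6% of the 494 genes; background 53.4%) and 88 lower (17.8%; background 22.9%).

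The 5 genes with the highest log2 ratio all had other exonic peaks. For Impad1, a phosphatase of the Golgi, WT counts at 0, 4 and 8 h were 1007, 389 and 59 and R255K counts 478, 1320 and 940, a log2 ratio of 4.47. For Nipbl, the cohesin loader, WT counts were 1444, 574 and 97 and R255K counts 359, 1079 and 615, a log2 ratio of 4.07. In WT both were lower at each later time, while in R255K both were higher at 4 and 8 h than at 0 h. Pdzd8 had a log2 ratio of 3.75, Togaram1 3.54 and Ubn2 3.51. The 5′-end peak was lost on the first 4 genes and kept on Ubn2.

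The 5 genes with the lowest log2 ratio had no exonic WT peak but the one at the 5′ end. They were Gm12751 (−1.34), Gm6055 (−1.05) and Gm4617 (−1.01), which are processed pseudogenes that may share reads with their parent genes, and Psmb5, a proteasome subunit (−0.82), and Cotl1, an actin-binding protein (−0.81). WT counts of Psmb5 were 2379, 2888 and 3293 and R255K counts 3249, 3523 and 3874. These raw counts were higher at each later time in both genotypes, but the R255K library totals were also larger at 4 and 8 h. Relative to the library total, Psmb5 retained 175% at 8 h in WT and 99.1% in R255K. By this scaling a rise at 8 h was seen in WT only, which need not hold under the TMM or DESeq2 factors.

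Genes named above for their peaks spanned this range. Ythdf3, whose 5′-end peak was kept, gave WT counts of 2341, 1060 and 304 and R255K counts of 904, 1396 and 1030, a log2 ratio of 2.53. Klf5, also kept, gave WT counts of 5195, 278 and 117 and R255K counts of 873, 176 and 119 (log2 ratio 2.00), and Klf4 gave 4220, 158 and 100 against 1547, 317 and 135 (1.28). Both were short-lived in both genotypes, with fewer counts in R255K at 0 h. Smad5, whose 5′-end peak was lost, gave WT counts of 945, 326 and 89 and R255K counts of 647, 638 and 426 (log2 ratio 2.204). Pou5f1, with a lost peak and no other, gave 16974, 20227 and 24209 against 13537, 18272 and 21023 (−0.48), with more counts at each later time in both genotypes.

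The change in enrichment and the change in decay did not always go together in these named genes. With a peak higher in R255K, Syncrip gave WT counts of 7007, 6451 and 6116 and R255K counts of 2874, 5976 and 5966 (log2 ratio 0.65), and Ddx6 had a log2 ratio of 0.89. With a peak lower in R255K, Krit1 stood at 2.21, Ppm1d at 2.28 and Supt6 at −0.13. With the peak lost, Rfx7 stood at 2.26, Syk at 1.21, Pcif1 at 0.59 and Tfap2c at 0.42. Cnnm3, kept and strong in both, gave 834, 238 and 99 against 956, 678 and 586 (1.77).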

How the data were processed

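WT and R255K mESCs were measured by MeRIP-seq (2 IP and 2 input libraries per genotype) and by RNA-seq after actinomycin D (6 libraries). The submitters' processing notes name Bowtie2 2.2.6, HISAT2, Picard 2.16.0, SAMtools 0.1.09, MACS2 and mm10. Deposited peak lists give fold enrichment as a ratio over input and −log10 q per peak, 1 list per genotype, and how the replicates were combined is not given in the sources used here. Gene counts were deposited raw by the authors, and their counting tool and annotation are not given in the sources used here.

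From these, shares with Wilson intervals, differences with Newcombe intervals, peak number ratios with Poisson intervals and medians with order-statistic intervals were computed with pandas 2.3.3 and scipy 1.17.1 under Python 3.11.15, and sequence was read with pysam 0.24.0. FPKM was computed from counts, summed exon length and library total. The decay rate averaged the natural log decline from 0 to 4 h and that from 0 to 8 h, each per hour, with counts under 3 at 4 or 8 h set to 3. Half-lives needed decay in both genotypes. Gene types came from GENCODE M21 by symbol, which matched 804 of 833 genes, sequence from the mm10 genome and starts from RefSeq for mm10. Scaling alternatives used edgeR 4.0.16 (TMM) and DESeq2 1.42.0 (size factors), and no count model was fitted. The scripts were tested on simulated data.

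Members, gene lists and measures were chosen with earlier results of these data known. Named peaks were the 8 of highest WT fold enrichment, the 8 lost of highest WT −log10 q, the 5 kept with the highest and the 5 with the lowest ratio at WT −log10 q of 20 or more, those next to the distance limit, and all on the lists. Named decay genes were the 5 of largest rise and the 5 of largest fall among genes with 200 counts or more at 0 h and counting intervals apart. The alternatives changed the distance, overlap, peak strength, motif window, scaling, expression limit, time points and gene choice.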

Additional observations from a re-analysis of the deposited data

How the results depend on the processing

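Depth behind the peak lists is unknown, and 1 list per genotype and 1 RNA library per genotype and time allow no replicate check. No paired analysis was possible because each genotype had 1 peak list and 1 library per time, and for the same reason no replicate could be left out. Over 11 results and 83 alternatives, 62 values moved by less than their interval, 20 moved by more and 1 changed direction. A change of direction was counted only where the main interval did not hold the value of no difference. The count ratio of 5′-end peaks changed direction for a limit of 100 bp (0.964). Not counted were 2 changes of sign where the main interval held 0. They were the difference within the same genes for a limit of 100 bp (−0.29, −13.8 to 12.8) and the 0 h log2 ratio of FPKM with TMM (−0.03, −0.08 to 0.02). The kept share was 58.0% where 50% of a WT peak had to be covered, 49.5% at fold enrichment 4, 69.5% for genes at 1 FPKM and 67.3% for coding genes, the last chosen after seeing the data. The difference from other exonic peaks was 15.7 points at 50% coverage and 0.10 at fold enrichment 4. GGAC was in 55.7% of windows of 50 bases to each side and in 90.6% on both strands. The median half-life ratio, 1.98, was 1.79 with TMM, 1.80 with DESeq2 size factors, 2.22 with the median of genes without a peak set equal, 2.35 for a limit of 100 bp, 2.205 from the 8 h library alone, 2.74 from 4 to 8 h and 2.11 with genes that did not decay kept. The log2 ratio of retained shares, 0.71, was 0.33 with TMM, 0.22 with DESeq2 size factors, 0.58 at 5 FPKM and 0.32 at 4 h. Scaling moved the median of all genes from 0.42 to 0.03 with TMM and to −0.08 with DESeq2 size factors, and that of genes without an exonic peak from −0.10 to −0.49 and −0.60. Relative to all genes, those with a 5′-end peak stayed higher under each. The difference between 5′-end-only genes and genes without a peak, 0.12, was 0.40 for a limit of 100 bp. Where 50% of a WT peak had to be covered, and at −log10 q of 5 or more, the interval of the difference within the same genes no longer held 0, and that of the 5′-end-only difference held 0 at a count of 10 or 5 FPKM. The difference between lost and kept, 0.35, had an interval that held 0 for a limit of 100 bp (0.31, −0.07 to 1.12) and at 5 FPKM. The causes were not tested.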
